A study of Mus musculus with 9 samples.

Results

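The unfolded protein and ATF4 stress genes followed here were Atf3, Atf4, Atf5, Ddit3, Trib3, Asns, Sesn2, Hspa5, Xbp1 and Herpud1, read in mouse ovarian surface epithelial (MOSE) cells at 3 stages of spontaneous transformation in culture. They were taken as every probe set to which the platform's annotation gives 1 of these symbols and no other. This gave 22 of the 45101 probe sets on the array for the 10 genes, of 18193 genes named in all. Each stage, MOSE-E (early), MOSE-I (intermediate) and MOSE-L (late), was measured on 3 whole-genome Affymetrix arrays labelled as biological replicates. All 9 arrays held total RNA of 1 cell series isolated from C57BL6 mice, for which the labels name no treatment and no engineered allele, grown in high glucose medium with fetal bovine serum, insulin, transferrin, selenite and antibiotics. The MOSE-E cells were at passages 13, 14 and 15 and are labelled as non-malignant, the MOSE-I cells, labelled intermediate, at passages 63, 71 and 73, and the MOSE-L cells, labelled malignant, at passages 136, 142 and 143. Stage and time in culture cannot be told apart in this series, and p-values measure the spread between cultures of 1 cell series.

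When unfolded proteins build up in the endoplasmic reticulum (ER), sensors in its membrane (PERK, ATF6 and IRE1) start the unfolded protein response. PERK and the other kinases of the translation factor eIF2 slow protein synthesis while ATF4 is translated more, and ATF4 then turns on genes of amino acid supply, of stress feedback and, under lasting stress, of cell death. IRE1 splices the mRNA of Xbp1, whose product, with ATF6, turns on chaperones and the machinery that removes misfolded proteins from the ER. The arrays measured amounts of mRNA, so neither the splicing of Xbp1 nor the translation of Atf4 was measured.

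The promoters of 4 of the genes are shown because they hold an exact match to an element through which these factors are known to act. RefSeq promoter sequences of the mouse assembly GRCm38.p6, 250 bases before to 50 after each annotated start, were searched on both strands for the C/EBP-ATF element that ATF4 and its partners bind (TGATGNAAN, where N is any base) and for the ER stress element that ATF6 and XBP1 bind (CCAAT, any 9 bases, CCACG). The 150 bases before the start are printed 5′ to 3′ on the strand of the gene, with the match in capitals: Atf3 at chr1:191183334-191183483 on the minus strand, Asns at chr6:7693210-7693359 on the minus strand, Herpud1 at chr8:94386279-94386428 on the plus strand and Hspa5 at chr2:34771940-34772089 on the plus strand.
Atf3: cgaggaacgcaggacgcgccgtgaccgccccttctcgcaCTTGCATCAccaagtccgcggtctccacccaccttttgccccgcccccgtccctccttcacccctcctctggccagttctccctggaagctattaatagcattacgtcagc
Asns: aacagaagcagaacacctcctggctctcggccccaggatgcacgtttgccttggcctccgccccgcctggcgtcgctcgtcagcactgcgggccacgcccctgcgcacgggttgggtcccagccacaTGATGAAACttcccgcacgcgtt
Herpud1: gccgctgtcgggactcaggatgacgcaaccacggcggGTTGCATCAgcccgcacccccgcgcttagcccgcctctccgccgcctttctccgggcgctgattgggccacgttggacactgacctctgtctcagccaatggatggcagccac
Hspa5: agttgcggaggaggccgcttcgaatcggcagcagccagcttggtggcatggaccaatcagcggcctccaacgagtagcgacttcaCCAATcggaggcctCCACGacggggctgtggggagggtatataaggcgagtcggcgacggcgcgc
The C/EBP-ATF element lay 111 bases before the start of Atf3 and 113 bases before that of Herpud1, in both on the strand opposite to the gene, and 23 bases before the start of Asns. Trib3 held a match 13 bases after its start. In all, 4 of the 10 genes held the element, and 3.95% of the 32851 promoter windows in the table did. In the form searched, the ER stress element was matched once, 65 bases before the start of Hspa5, and in 0.119% of all windows. Other forms of this element were not searched. The cyclic AMP element (TGACGTCA) and the unfolded protein response element (TGACGTGG) were found in 0 of the 10 genes and in 1.79% and 0.676% of all windows. These are matches of letters in this window and not measured binding sites.

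The authors computed each array's intensities with the MAS 5.0 algorithm as linear signals without a unit and scaled them to a trimmed mean of 500. The median signal per array lay between 93.2 and 130.0, and the number of arrays limits the precision of every value. Over log2 signals MOSE-L replicate 3 had the lowest correlations within a stage, 0.889 and 0.907 with MOSE-L replicates 1 and 2, which correlated at 0.934. A like gap was seen for MOSE-E replicate 1 (0.951 and 0.955, the other pair 0.986) and MOSE-I replicate 1 (0.939 and 0.947, the other pair 0.985). The ratio of 3′ to 5′ probe signals for beta-actin was highest on MOSE-L replicate 3 (1.83, against 1.12 to 1.45 on the others). For Gapdh the ratio was lowest on that array (0.727, against 0.735 to 0.810). Of 8 simple epithelial and mesothelial markers 8 passed the signal filter on at least 1 array, among them Krt8, Krt18, Wt1 and Upk3b. Krt7 and Cdh1 averaged 3328 and 739 in MOSE-E, 294 and 56.0 in MOSE-I and 129 and 52.4 in MOSE-L. Their means were thus over 500 in MOSE-E only, while those of the other markers were over 500 in every stage. Of 6 endothelial markers 0 passed it (highest signal 239), of 6 leukocyte markers only Cd14 passed and of 5 granulosa markers only Inhbb.

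Signals were analysed as log2 of the signal plus 50, in limma with 1 mean per stage, for the 13845 probe sets whose highest signal passed 500. A gene was called changed at a Benjamini-Hochberg adjusted p of at most 0.05 over all those probe sets and where the log2 change in either direction reached 1. Of the 22 probe sets 21 passed the filter. The remaining one, 1439258_at of Atf4, stayed between 4.41 and 94.2 on the 9 arrays. Each of the 10 genes was represented by its tested probe set of highest mean signal, and so were all 7952 tested genes.

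Part of the stress genes rose in MOSE-L cells. Between MOSE-L and MOSE-E 4 of the 10 genes were called higher (Ddit3, Trib3, Herpud1 and Atf3) and 0 lower, where 8.11% of all tested genes were called higher and 7.49% lower. Between MOSE-L and MOSE-I the counts were again 4 higher and 0 lower, for the same 4 genes, against 7.38% and 6.04% of all genes. Between MOSE-I and MOSE-E 0 of the 10 genes were called in limma in either direction, against 2.29% and 3.61% of all genes. There 1 gene (Atf4, 10% of the 10 genes) had an unadjusted limma p under 0.05, where 29.8% of all tested genes did. The comparisons share arrays, so their counts are not independent of each other.

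Over the 10 genes the median log2 change was 0.87 from MOSE-E to MOSE-L, -0.09 from MOSE-E to MOSE-I and 0.76 from MOSE-I to MOSE-L, and over all tested genes it was 0.03, 0.03 and -0.02. In bulk RNA, a change in the share of cells that express a gene and a change in the RNA per cell cannot be told apart. The methods' t-test on the untransformed signals asks for an unadjusted p of at most 0.05 and a ratio of means of at least 2. By it 0 of the 10 genes were called in any of the 3 comparisons. Over all 7952 tested genes it called 510 higher and 562 lower from MOSE-E to MOSE-L. From MOSE-E to MOSE-I it called 244 and 325 of them, and from MOSE-I to MOSE-L 411 and 433. The share of all genes that reached the p alone was not computed. The p alone was reached by Atf4, Sesn2 and Xbp1 from MOSE-E to MOSE-L, by Atf4 from MOSE-E to MOSE-I and by Sesn2 from MOSE-I to MOSE-L, each with a ratio under 2, and not by the 4 genes called in limma.

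**Figure D1:**
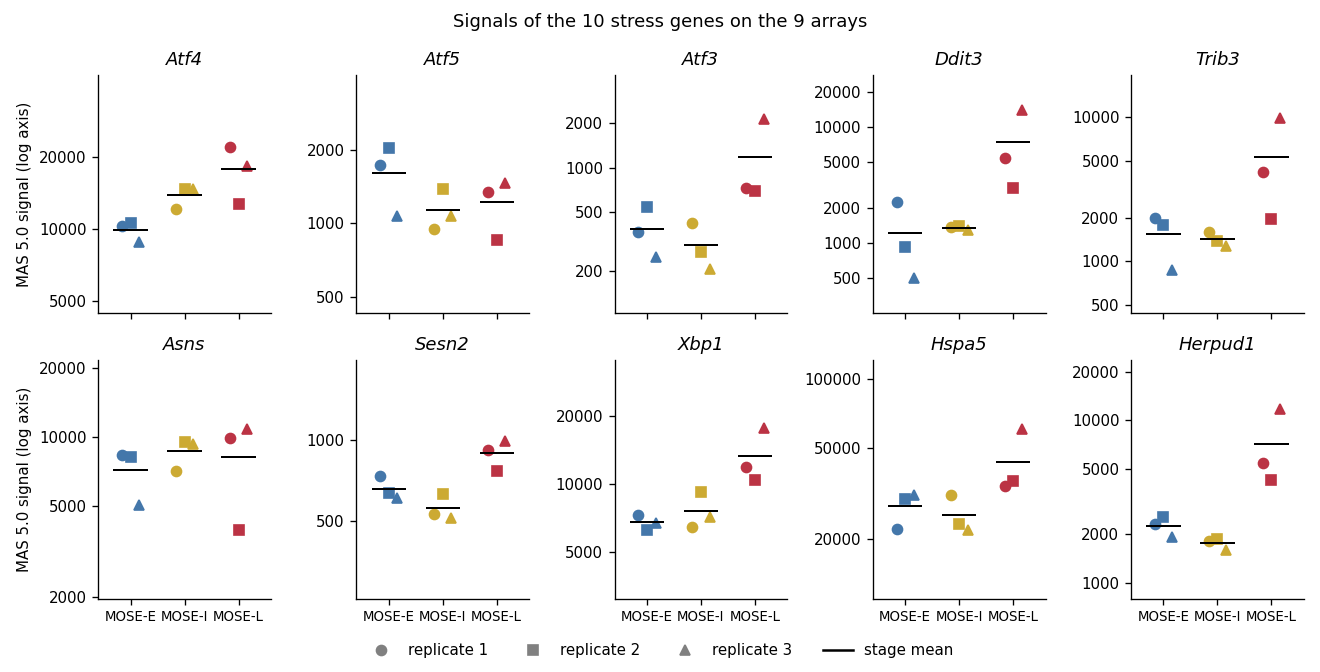
Signals of the 10 genes, each at its probe set of highest mean signal, on the 9 arrays. Each vertical axis is the MAS 5.0 signal without a unit, on a log axis of its own range, the symbol gives the replicate and the black line the mean of the 3 arrays of a stage. The MOSE-L arrays of Ddit3, Herpud1 and Atf3 lie above all MOSE-E and MOSE-I arrays, with replicate 3 the highest, while the stages overlap for Asns and Atf5.

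Atf4, the transcription factor at the head of the integrated stress response, was measured by probe set 1448135_at at 10285, 10636 and 8882 on the MOSE-E arrays, at 12192, 14755 and 14783 on the MOSE-I arrays and at 22205, 12824 and 18437 on the MOSE-L arrays. All MOSE-I and MOSE-L signals lay above the MOSE-E signals, and MOSE-L replicate 2 lay within the range of MOSE-I. The change from MOSE-E to MOSE-L was 0.81 (SE 0.21, limma adjusted p = 0.019), a 1.75-fold difference that passed the adjusted p and stayed under the minimum fold, so Atf4 was not called. From MOSE-E to MOSE-I it was 0.48 (SE 0.21, limma adjusted p = 0.155), and from MOSE-I to MOSE-L 0.33 (SE 0.21, limma adjusted p = 0.259). The other tested Atf4 probe set, 1438992_x_at, gave 0.51, 0.12 and 0.39 for these comparisons and passed in none.

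Atf5, a related factor that is likewise controlled through translation and acts on the mitochondrial stress response, was the only one of the 10 genes whose mean was lower in MOSE-L than in MOSE-E. Probe set 1425927_a_at gave 1727, 2032 and 1071 in MOSE-E, 949, 1379 and 1067 in MOSE-I and 1349, 855 and 1457 in MOSE-L, so that the 3 stages overlapped. The log2 change from MOSE-E to MOSE-L was -0.37, with a 95% interval of -0.98 to 0.23, and that from MOSE-E to MOSE-I was -0.46 (-1.07 to 0.15). Neither passed the test.

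Atf3, a stress-induced factor of the same bZIP family, had low signals at the early stages and higher ones late. Probe set 1449363_at gave 368, 545 and 247 in MOSE-E, 425, 269 and 206 in MOSE-I and 726, 702 and 2139 in MOSE-L. All MOSE-L arrays lay above all others, with replicate 3 far above replicates 1 and 2. Atf3 rose by 1.37 from MOSE-E to MOSE-L (2.58-fold, SE 0.42, limma adjusted p = 0.0349) and by 1.68 from MOSE-I to MOSE-L (3.20-fold, SE 0.42, limma adjusted p = 0.0175), and its change from MOSE-E to MOSE-I was -0.31 (SE 0.42).

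Ddit3, which encodes CHOP, the factor that links lasting ER stress to cell death, had the largest change of the 10 genes. Its probe set 1417516_at gave 2274, 921 and 500 in MOSE-E, 1368, 1412 and 1297 in MOSE-I and 5404, 2985 and 13913 in MOSE-L. The MOSE-I arrays were close together, the MOSE-E arrays were spread widely, and each MOSE-L array lay above the highest MOSE-E array. Ddit3 rose by 2.51 from MOSE-E to MOSE-L (5.70-fold, 95% interval 2.45 to 13.4, SE 0.56, limma adjusted p = 0.00893) and by 2.12 from MOSE-I to MOSE-L (4.35-fold, SE 0.56, limma adjusted p = 0.0205). The second Ddit3 probe set, 1443897_at, was dim: its mean was 257 ± 96.8 for MOSE-E, 95.2 ± 44.7 for MOSE-I and 595 ± 340 for MOSE-L (SD, n = 3). It was called between MOSE-L and MOSE-I at 2.01 and not between MOSE-L and MOSE-E, where it changed by 0.94, and it gave -1.07 from MOSE-E to MOSE-I where the brighter probe set gave 0.39, neither of which passed.

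Trib3, a pseudokinase induced by ATF4 and CHOP that feeds back on ATF4, gave 1995, 1797 and 872 in MOSE-E, 1611, 1381 and 1290 in MOSE-I and 4168, 1956 and 9843 in MOSE-L by probe set 1456225_x_at. MOSE-L replicate 2 lay just under the highest MOSE-E array, and all MOSE-L arrays lay above MOSE-I. The rise was 1.53 against MOSE-E (2.89-fold, SE 0.49, limma adjusted p = 0.0398) and 1.57 against MOSE-I (2.97-fold, SE 0.49, limma adjusted p = 0.0366). The other Trib3 probe set, 1426065_a_at, was called in both comparisons as well, at 1.59 and 1.82.

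Asns, the asparagine synthetase and a textbook target of ATF4, passed in no comparison. It gave 8332, 8156 and 5033 in MOSE-E, 7093, 9432 and 9308 in MOSE-I and 9818, 3930 and 10800 in MOSE-L by probe set 1433966_x_at, so MOSE-L held both the lowest and the highest array. The log2 change from MOSE-E to MOSE-L was 0.10 (95% interval -0.69 to 0.88), an interval that still holds a 1.84-fold rise. The other probe set, 1451095_at, gave 0.28 (-0.35 to 0.91).

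Sesn2, a stress-induced inhibitor of mTORC1 signalling, gave 735, 638 and 607 in MOSE-E, 532, 630 and 514 in MOSE-I and 918, 766 and 995 in MOSE-L by probe set 1425139_at. The MOSE-L arrays lay above all others by small margins. The changes were 0.41 against MOSE-E (SE 0.18, limma adjusted p = 0.109) and 0.63 against MOSE-I (SE 0.18, limma adjusted p = 0.0256), the latter under the minimum fold. The dimmer probe set 1451599_at was called against MOSE-I at 1.13, where its MOSE-I mean was 255 ± 108 and its MOSE-L mean 602 ± 122 (SD, n = 3).

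Of Herpud1, Xbp1 and Hspa5, the members of the ER arm, Herpud1 had the largest changes. It encodes an ER membrane protein that helps to remove misfolded proteins. Probe set 1448185_at gave 2321, 2539 and 1917 in MOSE-E, 1824, 1879 and 1606 in MOSE-I and 5501, 4307 and 11794 in MOSE-L. The early and intermediate arrays were close together and every MOSE-L array lay well above them. Herpud1 rose by 1.52 from MOSE-E to MOSE-L (2.87-fold, 95% interval 1.78 to 4.66, SE 0.31, limma adjusted p = 0.0065) and by 1.86 from MOSE-I to MOSE-L (3.63-fold, SE 0.31, limma adjusted p = 0.00359). Its other probe set, 1435626_a_at, was called in both at 1.46 and 1.52.

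Xbp1, the transcription factor whose mRNA IRE1 splices, gave 7316, 6256 and 6733 in MOSE-E, 6440, 9180 and 7124 in MOSE-I and 11828, 10391 and 17612 in MOSE-L by probe set 1420886_a_at. All MOSE-L arrays lay above the rest. The change of 0.93 from MOSE-E to MOSE-L (SE 0.22, limma adjusted p = 0.0132) and of 0.78 from MOSE-I to MOSE-L (SE 0.22, limma adjusted p = 0.0281) passed the adjusted p but not the minimum fold. The other 3 probe sets of Xbp1 gave 0.45 to 0.67 against MOSE-E and 0.51 to 0.88 against MOSE-I.

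Hspa5, the ER chaperone BiP, is the classical target of the ATF6 and XBP1 arm, and its ER stress element is printed above. Probe set 1416064_a_at gave 22123, 29820 and 31010 in MOSE-E, 30975, 23095 and 21903 in MOSE-I and 34100, 35730 and 60344 in MOSE-L. The MOSE-L arrays lay above all others, replicates 1 and 2 by little. The changes were 0.61 against MOSE-E (SE 0.24, limma adjusted p = 0.0852) and 0.74 against MOSE-I (SE 0.24, limma adjusted p = 0.045). Probe set 1427464_s_at was called against MOSE-I at 1.04, while 1447824_x_at gave -0.11 and 0.05 and did not follow the other 2.

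**Figure D2:**
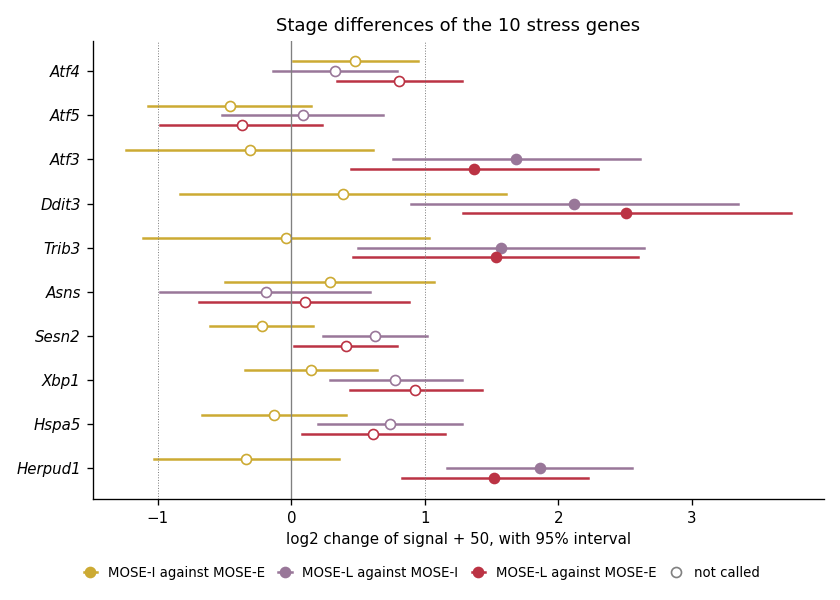
Log2 change of the signal plus 50 for each gene in the 3 stage comparisons, with 95% intervals from the limma fit over 9 arrays. Filled points were called and open points were not, and the dotted lines mark the minimum change of 1. The 4 genes with filled points are Atf3, Ddit3, Trib3 and Herpud1, in both comparisons with MOSE-L, and all points of MOSE-I against MOSE-E are open.

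MOSE-L replicate 3 held the highest of the 9 signals for 8 of the 10 genes, all but Atf4 and Atf5, and for 22.6% of all tested genes. Set against the mean of MOSE-L replicates 1 and 2 it was higher by 1.78 on the log2 scale for Ddit3, by 1.77 for Trib3, by 1.52 for Atf3 and by 1.27 for Herpud1. These differences were at or above those of 97.2% to 99.1% of all tested genes. For Asns and Hspa5 it was higher by 0.79, for Xbp1 by 0.67, for Atf5 by 0.42, for Sesn2 by 0.23 and for Atf4 by 0.13, and the median of all genes was -0.02. Taken against the MOSE-E mean, the median over the 10 genes was 0.85, 0.39 and 1.26 on MOSE-L replicates 1, 2 and 3, lay between -0.25 and 0.08 on the MOSE-I arrays and between -0.35 and 0.15 on the MOSE-E arrays. The median SD of the genes' log2 values was 0.34 for the MOSE-E, 0.19 for the MOSE-I and 0.60 for the MOSE-L arrays, against 0.19, 0.22 and 0.32 over all tested genes. The limma fit took the same spread for all stages of a probe set. With only MOSE-E and MOSE-L fitted, the limma adjusted p was 0.0587 for Atf3 and 0.0829 for Trib3, and neither was called.

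Without MOSE-L replicate 3 the 4 called genes kept their direction with smaller values. From MOSE-E to MOSE-L Ddit3 then changed by 1.92 and Herpud1 by 1.10, both still called, while Trib3 at 0.94 and Atf3 at 0.86 were not. From MOSE-I to MOSE-L Herpud1 at 1.44 and Atf3 at 1.17 were still called, and Ddit3 at 1.53 and Trib3 at 0.98 were not. Without MOSE-L replicate 3 calls over all 7952 tested genes also fell. Against MOSE-E they went from 645 higher and 596 lower to 552 and 478. Against MOSE-I they went from 587 and 480 to 396 and 302. Herpud1 was called in both comparisons with any 1 of the 9 arrays left out. Ddit3 was called against MOSE-E in all 9 and lost the call against MOSE-I also without MOSE-I replicate 1 or 3. Atf3 lost its call against MOSE-E also without MOSE-E replicate 1 or 3 and that against MOSE-I only without MOSE-I replicate 3. Trib3 was the least stable of these genes: it was called against MOSE-E in 2 of the 9 cases (without MOSE-E replicate 1 or MOSE-L replicate 2) and against MOSE-I in 3 of them (also without MOSE-E replicate 3). MOSE-L replicate 3 also had the highest 3′ to 5′ ratio for beta-actin. MOSE-L replicate 2 had a higher ratio than replicate 1 (1.45 against 1.34) and a lower median over the 10 genes (0.39 against 0.85). The part of this ratio in the values was not tested. The summed granulosa marker signal was 1695 to 2122 on the MOSE-L arrays, 453 to 597 on the MOSE-I arrays and 449 to 580 on the MOSE-E arrays. The mean Inhbb signal was 1338 in MOSE-L, 114 in MOSE-E and 40.5 in MOSE-I, Foxl2 stayed under the filter on every array, and Fshr, Amh and Esr2 had signals of at most 163. The sum moved with the stage, and its part in the stress genes was not tested.

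**Figure D3:**
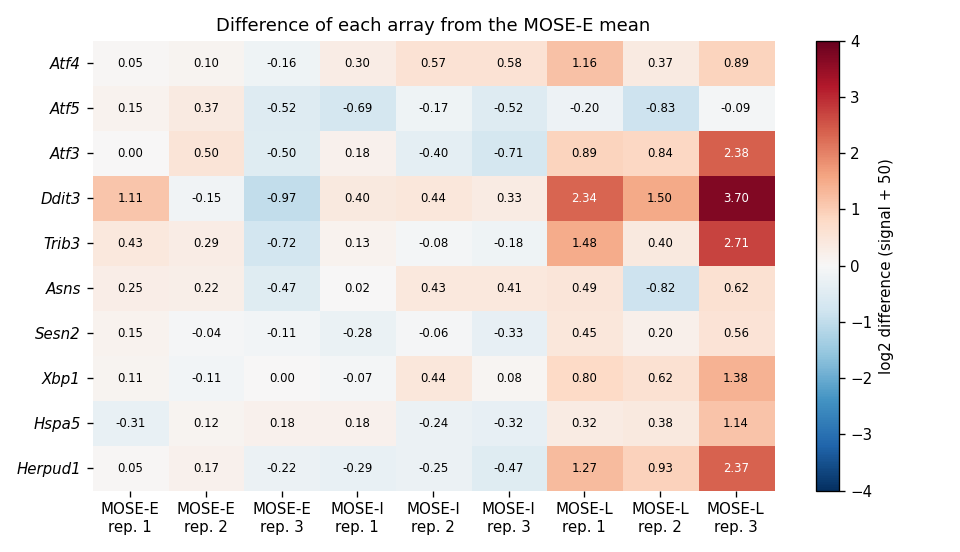
Difference of each array from the MOSE-E mean, as log2 of the signal plus 50, for the 10 genes (rows) on the 9 arrays (columns); red is higher and blue lower, with the value in each cell. The column of MOSE-L replicate 3 holds the highest value in 8 of 10 rows, up to 3.70 for Ddit3, and the rows of Asns and Atf5 hold negative values in MOSE-L.

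The other genes of the pathway were read from 6 lists of 120 genes, 114 of which were matched and 109 of which were tested. Shares of a list called higher are set beside the shares of all tested genes called higher, 8.11% against MOSE-E and 7.38% against MOSE-I. Of all 7952 tested genes 645 were called higher against MOSE-E and 587 against MOSE-I. Without MOSE-L replicate 3 these numbers were 552 and 396. The list of sensors and eIF2 kinases, as drawn up, also held a subunit of eIF2, subunits of its exchange factor eIF2B and the proteases that cut ATF6. Of its 13 tested genes 3 (23.1%, all genes 8.11%) were called higher and 0 lower from MOSE-E to MOSE-L. Those 3 were the genes of the ER stress sensors themselves. Ern1, which encodes IRE1, gave 602, 637 and 607 in MOSE-E, 859, 879 and 714 in MOSE-I and 1151, 2969 and 6681 in MOSE-L, a change of 2.12 (SE 0.46, limma adjusted p = 0.00827). Atf6 gave 616, 660 and 480.0 in MOSE-E, 479, 469 and 404 in MOSE-I and 1176, 1675 and 4824 in MOSE-L, a change of 1.79 (SE 0.40, limma adjusted p = 0.00956). Eif2ak3, which encodes PERK, gave 757, 702 and 723 in MOSE-E, 646, 771 and 850 in MOSE-I and 1409, 1839 and 2874 in MOSE-L, a change of 1.37 (SE 0.24, limma adjusted p = 0.00286). For each of the sensor genes every MOSE-L array lay above every other array. They remained called against MOSE-E with any 1 of the 9 arrays left out, at 1.52, 1.21 and 1.09 without MOSE-L replicate 3. Against MOSE-I the same genes were called, at 1.75, 2.12 and 1.32, together with Mbtps1 at 1.04, the protease that cuts ATF6, in all 4 genes (30.8%, all genes 7.38%). Ern1 lost the call against MOSE-I without MOSE-L replicate 2 and without MOSE-I replicate 1 or 3, and Mbtps1 without MOSE-I replicate 3 or MOSE-L replicate 3. The list's median change was 0.22 against MOSE-E and 0.09 against MOSE-I.

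The ATF4 program's other regulators and feedback genes (18 tested) had 7 (38.9%, all genes 8.11%) called higher and 0 lower against MOSE-E and 5 (27.8%, all genes 7.38%) higher and 0 lower against MOSE-I, with medians of 0.91 and 0.57. Ppp1r15a, the phosphatase subunit that ends eIF2 phosphorylation, gave 330, 301 and 319 in MOSE-E, 286, 261 and 245 in MOSE-I and 914, 584 and 3691 in MOSE-L. It rose by 1.85 against MOSE-E (SE 0.50, limma adjusted p = 0.0211) and by 2.07 against MOSE-I. Vldlr, a lipoprotein receptor, rose by 1.75 and 2.12. Nupr1, a stress-induced nuclear protein, rose by 2.40 against MOSE-I (SE 0.40, limma adjusted p = 0.00319), where its signals were 1379, 2162 and 1433 in MOSE-I and 7910, 4738 and 18140 in MOSE-L. Sqstm1, an autophagy receptor, rose by 1.75 and Ddit4, an inhibitor of mTORC1, by 1.51 against MOSE-E, and their changes against MOSE-I, 0.46 and 0.88, did not pass. Fgf21, a hormone of the fasting response, was called against MOSE-I at 2.98 (SE 0.92), with MOSE-L signals of 447, 142 and 5177. It gave 1.62 without MOSE-L replicate 3 and was then not called, nor was it without MOSE-E replicate 2 or 3 or any 1 of the MOSE-I arrays. Without MOSE-L replicate 3 the list's counts against MOSE-E and MOSE-I were 4 and 3. Against MOSE-E the count was 0 without MOSE-E replicate 3 and 4 without MOSE-E replicate 2, and against MOSE-I it was 3 without MOSE-I replicate 3.

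Of 17 tested genes of amino acid synthesis and transport 3 (17.6%, all genes 8.11%) were called higher against MOSE-E and 5 (29.4%, all genes 7.38%) against MOSE-I, with 0 lower in both, and the medians were 0.39 and 0.89. Those called were mostly transporters: Slc6a9, a glycine transporter, rose by 1.21 and 1.42, and Slc3a2, the heavy chain of several amino acid exchangers, by 1.16 and 1.36. Got1, an aspartate aminotransferase, rose by 1.05 against MOSE-E. Slc7a11, the cystine transporter, rose by 2.34 and Slc7a1, an arginine transporter, by 1.71 against MOSE-I. Slc7a11 gave 651, 401 and 3018 in MOSE-L and 210, 145 and 96.8 in MOSE-I. Without MOSE-L replicate 3 the counts were 0 and 3. Without MOSE-E replicate 2 or 3 the count against MOSE-E was 1, and without MOSE-I replicate 3 the count against MOSE-I was 1.

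The list of aminoacyl-tRNA synthetases held some known targets of ATF4 and, as drawn up, also a tRNA export factor. Of its 18 tested genes 0 were called in limma in any comparison. All genes had 8.11% called higher and 7.49% lower against MOSE-E and 7.38% and 6.04% against MOSE-I. At an unadjusted limma p under 0.05 stood 5 of the 18 (27.8%, all genes 40.7%) from MOSE-E to MOSE-L. From MOSE-E to MOSE-I 1 did (5.56%, all genes 29.8%), and from MOSE-I to MOSE-L 3 did (16.7%, all genes 42.7%). The methods' t-test called 0 of them in each comparison. Of all 7952 tested genes it called 510 higher and 562 lower, 244 and 325, and 411 and 433 in these comparisons. Whether the list's shares differ from those of all genes was not tested, and 1 gene of the list was called lower against MOSE-E without MOSE-L replicate 3. The changes against MOSE-E ran from -0.87 to 0.58 with a median of 0.10, near the median of all genes.

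Of 20 ER chaperones and folding enzymes 2 (10%, near the 8.11% of all genes) were called higher and 0 lower against MOSE-E, and 3 (15%, all genes 7.38%) higher and 0 lower against MOSE-I, with medians of 0.38 and 0.56. Dnajb9, a co-chaperone of BiP, gave 1884, 1459 and 1813 in MOSE-E, 1010, 1160 and 883 in MOSE-I and 3374, 2441 and 10740 in MOSE-L, and rose by 1.36 (SE 0.43, limma adjusted p = 0.0384) and 2.09 (limma adjusted p = 0.00815). Its call against MOSE-E was lost without any 1 of the MOSE-E or MOSE-I arrays or MOSE-L replicate 3, while that against MOSE-I was kept in each case. Fkbp14, a prolyl isomerase, rose by 1.10 against MOSE-E, and the oxidases Ero1a and Ero1b by 2.31 and 1.40 against MOSE-I. Ero1a signals were 2868, 2104 and 19510 in MOSE-L, and its change was 0.18 without replicate 3. It was then not called, nor was it without any single MOSE-I array. Without MOSE-L replicate 3 the list's counts were 0 and 2.

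Hyou1, another ER chaperone, was the only gene of the lists called between MOSE-I and MOSE-E. Its signals were 1787, 2508 and 2757 in MOSE-E, 766, 717 and 1031 in MOSE-I and 954, 1504 and 2820 in MOSE-L. It fell by 1.43 from MOSE-E to MOSE-I (SE 0.34, limma adjusted p = 0.0282), a call lost without any 1 of 5 arrays (MOSE-E replicate 2 or 3, or any MOSE-I replicate), and its change from MOSE-E to MOSE-L, -0.52, did not pass. At an unadjusted p under 0.05 between MOSE-I and MOSE-E stood 6 of the 20 chaperones (30%, 1 of them higher), near the 29.8% of all tested genes. So did 0 of the sensors and eIF2 kinases, 5 of the ATF4 regulators (27.8%), 1 of the amino acid genes (5.88%) and 2 of the degradation genes (8.70%), none of these shares above that of all genes. The methods' t-test called 2 of the chaperones, both lower, and 3 of the ATF4 regulators, 1 of them higher. It called 0 of the sensors, the amino acid genes and the degradation genes. Of all 7952 tested genes it called 244 higher and 325 lower in this comparison.

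Of 23 genes of ER-associated degradation and translocation 2 (8.70%, about the 8.11% of all genes) were called higher against MOSE-E and 6 (26.1%, all genes 7.38%) against MOSE-I, with 0 lower in both and medians of 0.29 and 0.38. Derl1, a channel component through which misfolded proteins leave the ER, gave 5443, 5008 and 4387 in MOSE-E, 4644, 8256 and 6778 in MOSE-I and 14250, 14160 and 36290 in MOSE-L. It rose by 1.97 (SE 0.35, limma adjusted p = 0.00297) and 1.60, and by 1.52 and 1.15 without MOSE-L replicate 3, called each time. Selenos, which anchors the extraction machinery in the ER membrane, rose by 1.18 and 1.22. Against MOSE-I, Sel1l and Syvn1, which form the core of a ubiquitin ligase complex, rose by 1.38 and 1.25, and the translocation subunit Sec62 by 1.27. Without MOSE-L replicate 3 only Derl1 was called, in both comparisons. Sel1l also lost its call without MOSE-E replicate 3 and without any single MOSE-I array.

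**Figure D4:**
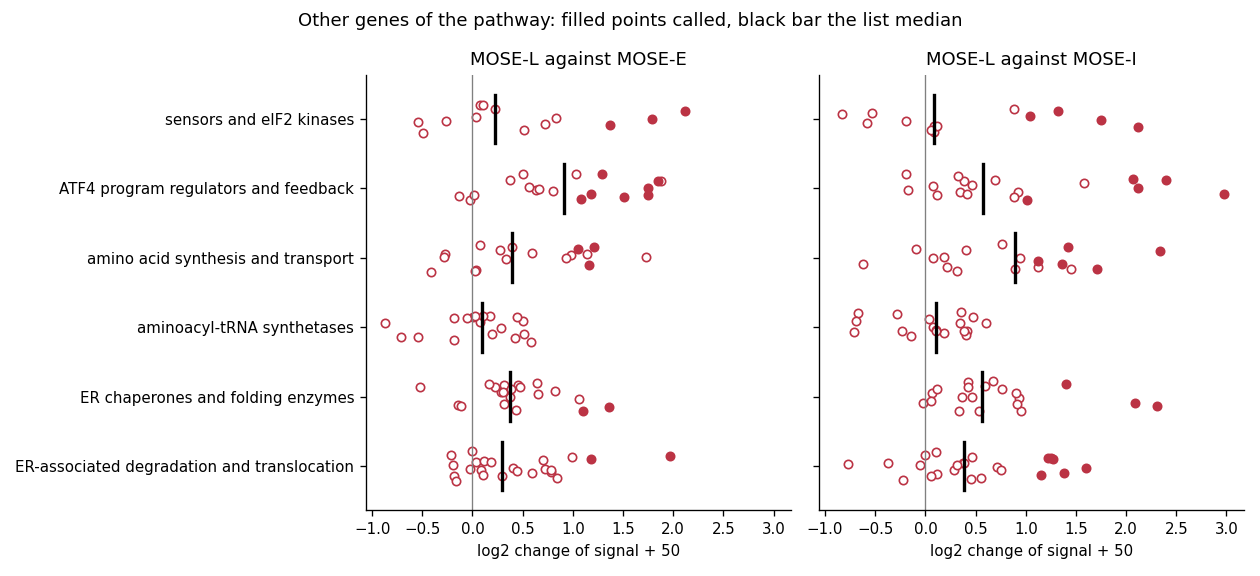
Log2 change of the signal plus 50 for each tested gene of the 6 pathway lists, MOSE-L against MOSE-E on the left and against MOSE-I on the right. Filled points were called, open points were not, points are spread vertically only for legibility and the black bar is the list's median. All filled points lie to the right of 0, and the aminoacyl-tRNA synthetases have none.

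The genes whose signals followed each stress gene most closely over the 9 arrays were found by the mean absolute difference of centred log2 values, among 7951 other tested genes. Herpud1 was the nearest of all genes to Atf3, at 0.21, followed by Clcn3 at 0.22. The nearest to Herpud1 were Tnfaip6 at 0.12 and Slc25a36 at 0.18. The nearest to Trib3 were Gpt2, an alanine aminotransferase, at 0.25 and Paqr3 at 0.26. The nearest to Ddit3 were Mmp11 at 0.33 and Paqr3 at 0.34, where its own mean absolute deviation was 1.06. Within the 10 genes, Herpud1 and Trib3 lay 0.27 apart, Xbp1 and Sesn2 0.22, and Sesn2 and Hspa5 0.26. Atf4 lay 0.27 from Xbp1 and 0.28 from Asns, while Ddit3 and Atf5 lay farthest apart at 1.09. The nearest to Atf5 was Txndc17 at 0.18, followed by Cebpg, a bZIP partner of ATF4, at 0.19. Map1lc3a (0.08) and Rfesd (0.1) were nearest to Atf4, and Nfu1 (0.17) and Vamp4 (0.19) to Asns. Pdcl (0.08) and Trappc6b (0.09) were nearest to Sesn2, Smox and Ndfip2 (0.11 each) to Hspa5, and Scamp1 (0.08) and Naxd (0.09) to Xbp1. These distances describe 9 arrays of 1 cell series, share its stages and MOSE-L replicate 3, and carry no test.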

How the data were processed

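Expression of 10 stress genes was measured in 9 samples, 3 per stage, on Affymetrix Mouse Genome arrays. The authors made the deposited intensities with MicroArray Suite 5.0, as linear signals per probe set scaled to a trimmed mean of 500; replicates were not pooled. All 45101 probe sets were read, 64 controls were left out and 34958 named 1 gene in the platform's annotation. Log2 of the signal plus 50 understates changes of dim genes, since 32.4% of signals lay under 50. Stage means were estimated in 1 linear model of the 9 arrays for the 13845 probe sets with a signal over 500 in limma 3.58.1 (R 4.3.3), with a variance trend. The procedure was first tested on simulated data with the same spread in every stage. The 10 genes did not have that, so the simulation does not cover the wider spread of their MOSE-L arrays. Tables and figures were made with Python 3.11.15, pandas 2.3.3 and matplotlib 3.10.9. A call needed an adjusted p of at most 0.05, which was the Benjamini-Hochberg value, and a change of at least 1. Groups came from the sample titles.

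The 10 genes and the lists were chosen with earlier results of these data known. The text names each of the 10 genes, up to 4 called genes per list and comparison with the largest change, the 2 nearest genes by distance and cell type markers. Gene symbols were read through RefSeq gene IDs (GRCm38.p6), and the 6 list genes not matched were not analysed here. Tried beside these were 1 or 200 in place of the added 50, quantile normalization, no filter, a minimum signal of 1000, no variance trend, only the 2 stages compared, the replicate number as a block, a call without the minimum fold, the methods' t-test (unadjusted and adjusted), the mean of a gene's probe sets, and each array left out in turn.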

Additional observations from a re-analysis of the deposited data

How the results depend on the processing

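The counts of stress genes called were 4 from MOSE-E to MOSE-L, 0 from MOSE-E to MOSE-I and 4 from MOSE-I to MOSE-L. Against MOSE-E the count was 2 without the filter on low signals, 2 with only the 2 stages compared and 2 with the replicate block, each time Ddit3 and Herpud1, and 0 by the methods' t-test, adjusted or not. Without the filter 708 of all 18193 genes were called higher and 620 lower. Of 7952 genes 589 and 510 were called with only the 2 stages compared, and 641 and 590 with the replicate block. Against MOSE-I the count of stress genes was 7 with no minimum fold, which added Hspa5, Sesn2 and Xbp1. At that setting 1044 of all 7952 tested genes were called higher and 1119 lower. Against MOSE-I the count of stress genes was 0 by both forms of the methods' t-test. By the adjusted form 92 of all 7952 tested genes were called higher and 161 lower against MOSE-E, and 1 and 4 against MOSE-I. With each array left out in turn the counts of stress genes ran from 2 to 6, from 0 to 0 and from 1 to 4. Over all 7952 tested genes those called higher then ran from 465 to 719, from 32 to 329 and from 396 to 817. Those called lower ran from 394 to 685, from 50 to 384 and from 302 to 673. The lowest count of stress genes against MOSE-E came without MOSE-E replicate 3 or MOSE-L replicate 3, and the lowest against MOSE-I without MOSE-I replicate 3. Over all alternatives 562 gene values kept their direction and call, 45 lost the call, 8 gained it and 12 turned sign, none of these called. With the mean of a gene's probe sets Ddit3 gave -0.34 and Xbp1 -0.07 from MOSE-E to MOSE-I. With an array left out, Trib3 ran from -0.40 to 0.17 and Ddit3 from -0.09 to 0.95 from MOSE-E to MOSE-I, Asns from -0.17 to 0.55 from MOSE-E to MOSE-L and from -0.45 to 0.27 from MOSE-I to MOSE-L, and Atf5 from -0.05 to 0.31 from MOSE-I to MOSE-L. The causes were not tested. Sesn2 stayed under a signal of 1000 and gave no value with that filter. Counts in the pathway lists rose without some arrays: from 3 to 5 for the sensor list without MOSE-L replicate 1, from 3 to 5 for the amino acid genes without MOSE-L replicate 1 or 2 and from 2 to 4 for the degradation genes without either, all against MOSE-E, and from 3 to 6 or 5 for the chaperones against MOSE-I without MOSE-L replicate 1 or 2. The replicate numbers are shared by the stages. Deviations from the stage mean correlated at -0.113 to 0.41 between same-numbered arrays and at -0.493 to 0.241 between different-numbered ones. The highest were those of MOSE-E and MOSE-L replicate 1 (0.41) and replicate 2 (0.262). Deviations from a mean of 3 arrays depend on each other, so these values cannot decide whether same-numbered arrays share more than a number. In the replicate block fit Trib3 was not called in either comparison with MOSE-L nor Atf3 against MOSE-E. Signals near background limit the second probe sets of Ddit3 and Sesn2 and the early Atf3 values.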
